A study of Mus musculus with 6 samples.

Results

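The mouse genes Hes1, Hes5, Hes7, Hey1, Hey2 and Heyl encode the Hes and Hey repressors, a family of basic helix-loop-helix proteins that Notch signalling induces. They were taken as the 6 probes whose gene symbol in the array annotation is that of a member and of no other gene, out of 33012 probes and 13840 named genes. Each member had 1 such probe, so no choice between probes was needed. RNA came from presomitic mesoderm, the unsegmented tissue that buds off somites, of mouse embryos at embryonic day 10.5. Wild-type embryos (3 arrays) were compared with littermate Nrarp knockout embryos (3 arrays), in which homologous recombination had put the LacZ gene in the place of the Nrarp coding region. The replaced gene is lost from every tissue of the embryo, the parents were heterozygous for the same allele, neither group received a treatment, and the labels used here name neither strain nor sex of the embryos. The labels give 12 presomitic mesoderms per genotype and not how they were divided among the arrays, so each p-value covers just the spread among these arrays, and that spread may be technical.

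When Notch is cleaved, its intracellular part joins the DNA-binding protein RBPJ and turns on target genes, among them the Hes and Hey genes and Nrarp. Hes and Hey proteins bind DNA as dimers, recruit co-repressors of the Groucho (TLE) family and silence genes that include, for several Hes members, their own. In presomitic mesoderm this feedback makes Hes7, and with it Hes1 and Hes5, oscillate with the formation of each somite, and Hes7 is a core part of the mouse segmentation clock. The Nrarp protein binds the Notch intracellular part and limits its activity. The series asks how Notch signalling sets the period of this clock.

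The RefSeq promoter table (build GRCm38.p6) held 3 of the 6 members, Hes5, Hes7 and Hey2. They are shown because the Notch partner RBPJ binds the letters GTGGGAA, whose matches on either strand are in capitals. Each run covers 250 bases before and 10 bases after the gene's start, at chr4:154960673-154960932 on the plus strand for Hes5, chr11:69120203-69120462 on the plus strand for Hes7 and chr10:30842774-30843033 on the minus strand for Hey2.
Hes5: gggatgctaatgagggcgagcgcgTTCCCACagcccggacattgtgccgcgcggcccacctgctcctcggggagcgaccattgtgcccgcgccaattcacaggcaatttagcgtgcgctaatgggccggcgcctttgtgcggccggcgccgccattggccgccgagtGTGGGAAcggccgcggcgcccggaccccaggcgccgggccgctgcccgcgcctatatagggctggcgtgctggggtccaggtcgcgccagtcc
Hes7: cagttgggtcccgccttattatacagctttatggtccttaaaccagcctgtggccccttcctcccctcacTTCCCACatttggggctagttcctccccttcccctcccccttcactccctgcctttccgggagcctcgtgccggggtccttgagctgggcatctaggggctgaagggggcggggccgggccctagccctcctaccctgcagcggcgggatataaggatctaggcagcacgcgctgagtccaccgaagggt
Hey2: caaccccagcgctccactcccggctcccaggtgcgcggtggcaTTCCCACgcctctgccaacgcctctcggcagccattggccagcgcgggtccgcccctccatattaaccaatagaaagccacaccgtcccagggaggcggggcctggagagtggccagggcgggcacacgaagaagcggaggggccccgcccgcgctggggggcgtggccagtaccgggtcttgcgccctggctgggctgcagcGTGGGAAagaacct
Over the full window of 300 bases, which ends 50 bases after the start, Hes5 and Hey2 each held 2 matches, 1 on each strand, and Hes7 held 1. Of 32851 such windows in the table, 6.38% held at least 1 match and 0.256% held 2 or more. In Hes5 the matches began 226 and 83 bases before the start. In Hes7 the match began 180 bases before the start, and in Hey2 they began 207 and 4 bases before it. Hes7 also held the letters CACGCG, a class C site of the kind that Hes and Hey proteins bind, 14 bases before its start (9.27% of windows hold 1), and the N box CACNAG, on the minus strand, between 116 and 111 bases before it (42.5% of windows). Both motifs were searched on both strands, and neither was found in the windows of Hes5 and Hey2. These matches are descriptions of the letters and not measurements of binding.

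The values are single-colour array intensities that the authors had scaled to a median just under 1 on each array (0.981 to 0.993). The arrays of replicate 1 stood apart in both genotypes, where the 75th percentile was 42.7 and 56.9 times the 10th, against 12.4 to 16.0 times on the other 4. Each comparison is therefore given without and with the replicate number as a block in the limma fit, and within each number. The Nrarp probe, which checks the labels only if it lies in the replaced part, read 318, 429 and 448 on the wild-type arrays and 14.3, 42.5 and 23.3 on the knockout arrays. The labelled tissue was set against its markers. All 14 measured presomitic mesoderm markers of 18, Hes7 among them, had a mean above the median of all probes. The same held for 12 of 14 endothelial, 6 of 8 mural, 6 of 8 heart muscle and 8 of 15 neural markers. Being above that level therefore does not identify the tissue. The summed intensity of the presomitic mesoderm markers was 2056 to 2332 in wild type and 2293 to 2326 in the knockout. In bulk tissue, fewer cells of a type and less RNA per cell cannot be told apart.

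Hes5 was higher in the knockout than in wild type, and it was the 1 member of the 6 whose groups did not overlap. Hes5 maintains progenitor cells and is a direct Notch target in many tissues. Its probe (562022) read 11.0, 8.26 and 9.49 on the wild-type arrays (replicates 1, 2 and 3) against 50.0, 39.4 and 33.3 on the knockout arrays. The lowest knockout array thus lay above the highest wild-type array, which was the case for 2.04% of all probes. The mean was 9.57 ± 1.36 (SD, n = 3) over the wild-type arrays and 40.9 ± 8.45 (SD, n = 3) over the knockout arrays. The fold from the means of log2 values was 4.24, with a 95% interval of 2.59 to 6.96 without the replicate block and 3.34 to 5.39 with it. Within replicates 1, 2 and 3 the fold was 4.56, 4.77 and 3.51. A log2 difference at or above that of Hes5 (2.09) was seen for 9 probes, Hes5 included, or 0.0273% of all.

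The test called Hes5 with the replicate block and not without it. In the limma fit without the block the unadjusted p was 0.00017 and the p adjusted over all probes was 1.00, where 0.0% of the 33012 probes passed an adjusted p of 0.05 and 0.657% had an unadjusted p under 0.05. With the block the adjusted p was 0.0058, and 0.00606% of probes, which are Nrarp and Hes5, passed. Among replicates 2 and 3 alone the blocked log2 difference was 2.03 (limma adjusted p = 0.0011). That fit uses part of the same arrays, has fewer residual degrees of freedom and leans more on the variance prior. Its smaller p is therefore no added support. When the blocked fit used a variance prior without an intensity trend, the adjusted p of Hes5 was 0.975, so the call was lost although the difference was the same. An exact two-sided permutation test over the arrays gave p = 0.1, and 3 against 3 arrays can give no smaller value.

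**Figure D1:**
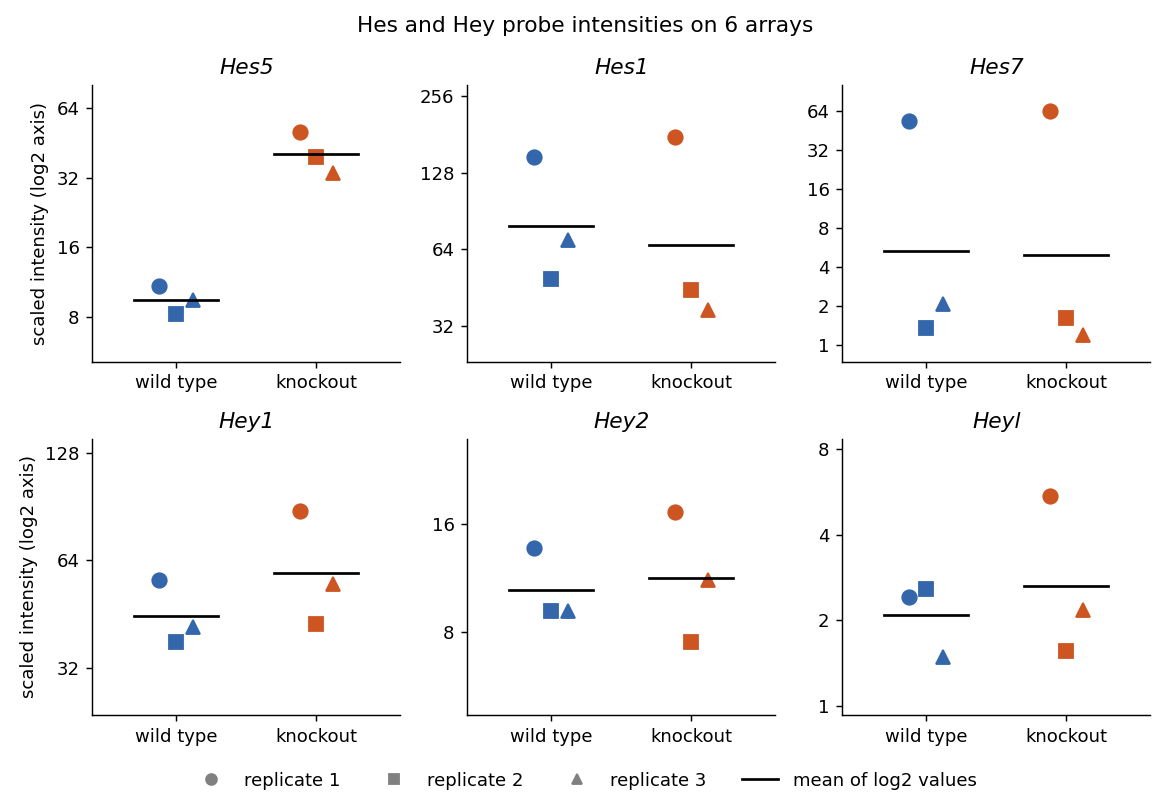
Scaled intensity of each Hes and Hey probe on the 6 arrays (log2 axis, own scale per gene), with wild type and knockout side by side, symbols for the replicate number and bars for the mean of the log2 values. Hes5 reads 8.26 to 11.0 in wild type and 33.3 to 50.0 in the knockout, whereas the groups of the other 5 genes overlap and Hes7 is high on the replicate 1 arrays of both genotypes.

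Of the remaining clock repressors, Hes1 did not pass the test. Hes1 acts in many progenitor cells and oscillates in presomitic mesoderm and in cultured cells. Its probe (406680) read 147, 49.0 and 69.4 on the wild-type arrays and 177, 44.5 and 37.1 on the knockout arrays. The knockout was above the wild type in replicate 1 and below it in replicates 2 and 3, so the groups overlapped. The mean was 88.5 ± 51.7 (SD, n = 3) over the wild-type arrays and 86.2 ± 78.8 (SD, n = 3) over the knockout arrays, and the log2 difference was -0.26 (95% interval -1.78 to 1.26 without the block and -0.70 to 0.19 with it). Within replicates 1, 2 and 3 it was 0.27, -0.14 and -0.90. The limma adjusted p was 1.00 in both fits. In replicates 2 and 3 alone the blocked log2 difference was -0.52 (limma unadjusted p = 0.016, adjusted p = 0.793).

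Hes7 showed no called difference between genotypes, and its values were set apart by replicate number instead. Its probe (558449) read 54.2, 1.36 and 2.09 on the wild-type arrays and 64.1, 1.63 and 1.19 on the knockout arrays. The replicate 1 array was the high array of each genotype, and the other 4 arrays lay close to the array medians. The log2 difference between genotypes was -0.10 (95% interval -4.36 to 4.15 without the block and -0.71 to 0.50 with it, limma adjusted p = 1.00 in both). Within replicates 1, 2 and 3 it was 0.24, 0.26 and -0.81, so 2 of 3 pairs were higher in the knockout. The blocked interval spans folds of 0.612 to 1.42, and changes inside it cannot be told from none at this number of arrays.

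The gap of Hes7 between replicate 1 and the other replicates was 5.27 on the log2 scale, a fold of 38.5. By this gap Hes7 ranked 7 of the 16506 probes above the median level, and the median gap of those probes was 0.33. After quantile normalization between arrays the gap of Hes7 was 4.93. Hes1 also read higher on the replicate 1 arrays, by 1.73 (1.52 after quantile normalization), and 17.4% of probes above the median level had a larger positive gap. The gaps were 0.39 for Hes5, 0.69 for Hey1, 0.75 for Hey2 and 0.94 for Heyl, all within the middle range of these probes (25th percentile -0.36, 75th percentile 1.31), and those of Hes5 and Hey2 turned negative after quantile normalization (-0.19 and -0.02). Among presomitic mesoderm markers Msgn1 and Dll1 were high on the same arrays, with Msgn1, a bHLH factor of the early presomitic mesoderm, at 50.2 and 50.1 in replicate 1 against 2.80 to 4.30 on the other 4 arrays. The gap was 2.00 for Dll1 and 2.80 for Aldh1a2. Other markers had a negative gap, among them Tbx6 (-0.76), Meox1 (-0.36) and Dll3 (-0.23). These markers, Msgn1 included, are named here after their values were seen. Over the 14 measured markers of that list, Hes7 included, the gap was positive for 9 and negative for 5, with a median of 0.59. Over 14 endothelial markers it was positive for 10 (median 1.67), and over 15 neural markers it was positive for 3 and negative for 12 (median -0.85). For 9 genes known to be repressed by Hes factors the gap was positive for 4 and negative for 5 (median -0.55). It ran from -1.85 for Neurod1, which lay below the array median on all 6 arrays, to 2.79 for Cdkn1a. These list gaps were taken without quantile normalization. Dim probes ran lower in replicate 1 in general, with 10th percentiles of 0.208 (wild type) and 0.171 (knockout), against 0.349 to 0.396 elsewhere. What sets replicate 1 apart was not tested.

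**Figure D2:**
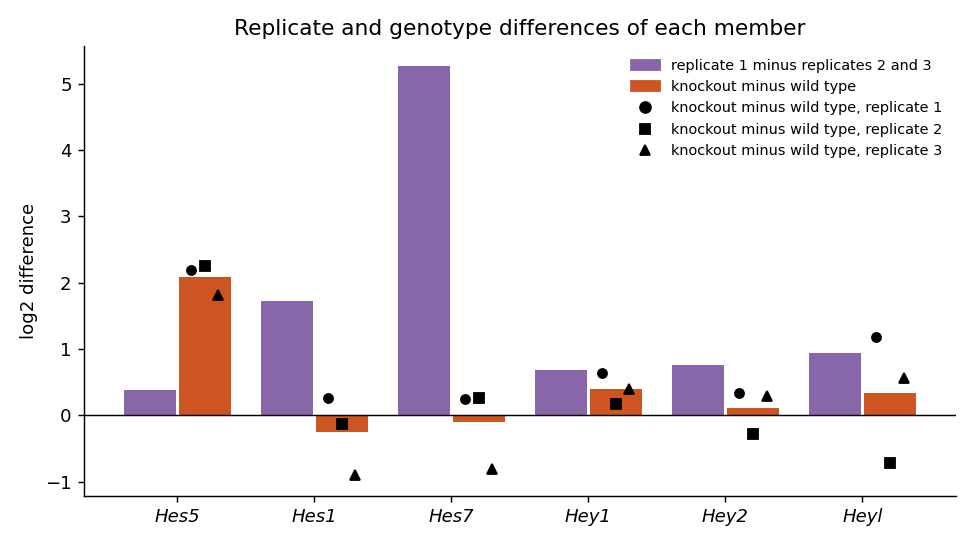
For each member, the mean log2 difference of the replicate 1 arrays from the arrays of replicates 2 and 3 (purple bars) and of knockout from wild type (orange bars), with symbols for the genotype difference within each replicate number. Hes7 has a replicate difference of 5.27 and a genotype difference of -0.10, whereas Hes5 has 0.39 and 2.09.

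Hey1 was higher in the knockout within each replicate number but did not pass the test over all probes. Hey1, with Hey2, mediates Notch signals in blood vessels and heart, and is also expressed in forming somites. Its probe (814590) read 56.5, 37.6 and 41.7 on the wild-type arrays and 87.7, 42.4 and 54.9 on the knockout arrays. Wild-type replicate 1 lay above 2 knockout arrays, so the groups overlapped, while among replicates 2 and 3 both knockout arrays lay above both wild-type arrays. The mean was 45.3 ± 9.92 (SD, n = 3) over the wild-type arrays and 61.7 ± 23.4 (SD, n = 3) over the knockout arrays, and the folds within replicates 1, 2 and 3 were 1.55, 1.13 and 1.32. All 3 pairs were higher in the knockout, as for 13.2% of all probes. The log2 difference was 0.40 (95% interval -0.41 to 1.21 without the block and 0.11 to 0.69 with it). The limma unadjusted p was 0.283 without and 0.013 with the block, where 3.75% of all probes had one under 0.05, and the adjusted p was 1.00 in both.

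Hey2 did not pass, and its sign differed between replicate numbers. Its probe (914445) read 13.7, 9.14 and 9.14 on the wild-type arrays and 17.3, 7.49 and 11.1 on the knockout arrays. The lowest and the highest of the 6 values were both knockout arrays. The mean was 10.7 ± 2.63 (SD, n = 3) over the wild-type arrays and 12.0 ± 4.98 (SD, n = 3) over the knockout arrays. The log2 difference was 0.11 (95% interval -0.84 to 1.07 without the block and -0.31 to 0.54 with it, limma adjusted p = 1.00 in both), and within replicates 1, 2 and 3 it was 0.34, -0.29 and 0.29.

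Heyl, a member that is expressed in smooth muscle of vessels and in somites, was the probe nearest to the array medians besides Hes7. It (449361) read 2.42, 2.57 and 1.48 on the wild-type arrays and 5.46, 1.56 and 2.17 on the knockout arrays, which puts it between the 57.9th and the 69.6th percentile of an array. Knockout replicate 1 was the high array, and the other 5 overlapped. The mean was 2.16 ± 0.592 (SD, n = 3) over the wild-type arrays and 3.06 ± 2.10 (SD, n = 3) over the knockout arrays. The log2 difference was 0.34 (95% interval -0.97 to 1.64 without the block and -0.56 to 1.23 with it, limma adjusted p = 1.00 in both), and within replicates 1, 2 and 3 it was 1.18, -0.72 and 0.56. The deposited values hold no detection flags, so whether Heyl, and Hes7 outside replicate 1, lay above background is not known.

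Over the family, 4 of 6 members had a positive log2 difference and 2 a negative one (median 0.22, or 0.11 without Hes5). Over all 13840 genes, 49.5% were positive and the median was -0.0025. With the block, 1 of 6 members passed over all probes and 2 of 6 had an unadjusted p under 0.05, both higher in the knockout, where 1.76% of all probes were. This share was not particular to the family, since 4 of 11 measured Notch targets outside it were higher at the same level.

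**Figure D3:**
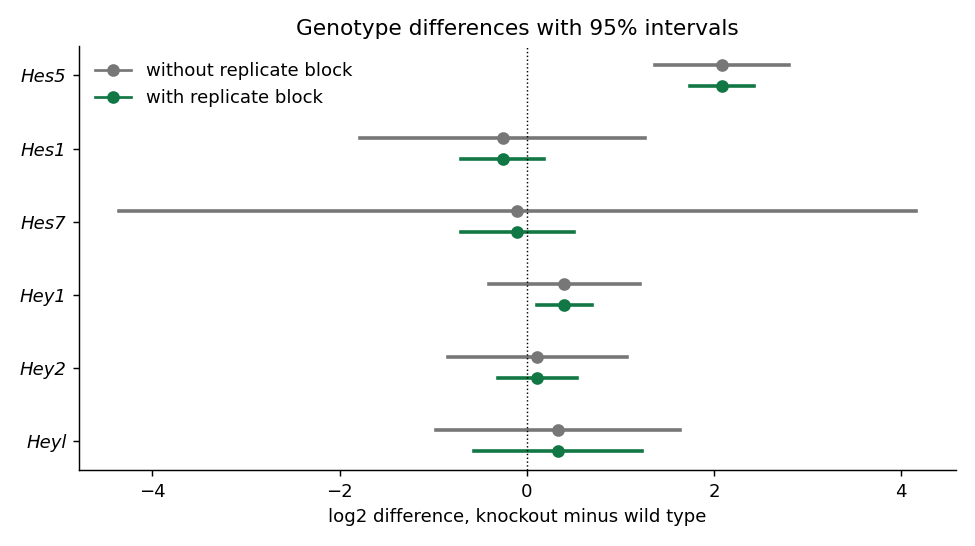
Log2 difference of knockout from wild type for each member with its 95% interval from limma, without (grey) and with (green) the replicate number as a block. The interval of Hes5 with the block runs from 1.74 to 2.43, above those of the other 5 members, and that of Hes7 runs from -4.36 to 4.15 without the block and from -0.71 to 0.50 with it.

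Hes5 was also set against each relative by the log2 ratio of both within an array, which does not depend on how arrays were scaled. Only the change of a ratio between arrays is read here, since probes differ in brightness. The ratio of Hes5 to Hes1 was -3.74, -2.57 and -2.87 on the wild-type arrays and -1.82, -0.18 and -0.15 on the knockout arrays. The ratio of Hes5 to Hey1 was -2.36, -2.19 and -2.13 on the wild-type arrays and -0.81, -0.11 and -0.72 on the knockout arrays. Both ratios were higher on every knockout array than on any wild-type array. The change of the ratio was 2.34 for Hes1, 1.68 for Hey1, 1.97 for Hey2, 1.75 for Heyl and 2.19 for Hes7. For 4 of the 5 the groups did not overlap and the exact permutation test gave p = 0.1 (two-sided), the smallest possible, or 0.125 with Benjamini-Hochberg adjustment over the 5 comparisons. For Hes7 the groups overlapped (exact permutation p = 0.5), since its replicate gap enters the ratio. Within replicates 1, 2 and 3 the change for Hes7 was 1.95, 1.99 and 2.62. All 5 ratios share the Hes5 values, so they largely restate its difference: a relative with no difference of its own would give a change of 2.09. None of the 5 comparisons can pass 0.05 in this design.

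**Figure D4:**
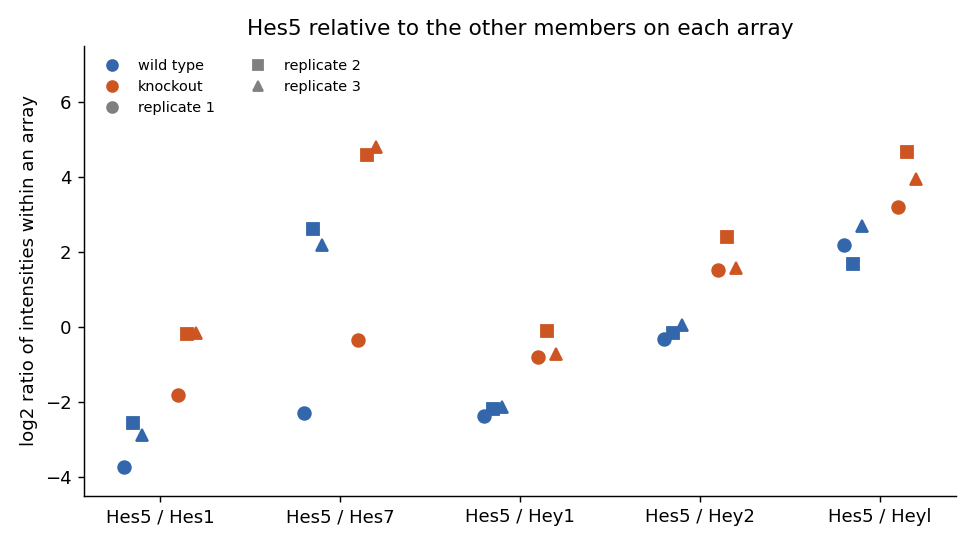
Log2 ratio of the Hes5 intensity to that of each other member on the same array, with wild type in blue, knockout in orange and symbols for the replicate number. The knockout values lie above all wild-type values for Hes1, Hey1, Hey2 and Heyl. For Hes7 this holds for knockout replicates 2 and 3, while knockout replicate 1 lies above wild-type replicate 1 alone.

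Hes5 is also a gene of neural progenitor cells, so markers of the neighbouring neural tube were set beside it. Of 15 measured neural markers of 19, 0 passed over all probes in either fit. For 8 of them the difference was positive and for 7 negative (median 0.10). Their summed intensity was 329 to 437 in wild type and 446 to 562 in the knockout. These ranges did not overlap. Fabp7, a fatty acid binding protein of radial glia and neural progenitors, read 194, 203 and 254 on the wild-type arrays and 311, 309 and 370 on the knockout arrays, a log2 difference of 0.61 (limma adjusted p = 1.00 without and 0.889 with the block). Without Fabp7, a step chosen after its values were seen, the summed intensity of the other 14 was 126 to 243 in wild type and 137 to 251 in the knockout, and the ranges overlapped. Sox2, a general neural progenitor factor that tailbud progenitors also express, read 28.0, 10.6 and 13.6 on the wild-type arrays against 23.4, 7.35 and 8.95 on the knockout arrays, lower in 3 of 3 pairs (log2 difference -0.46). Neurog1, a neurogenic factor that Hes proteins repress, differed by -0.49 and was lower in 3 of 3 pairs, though by just -0.09 in replicate 1. The share of all probes lower in 3 of 3 pairs was not counted, while 13.2% were higher in all 3. Of the 15 markers, 7 lay above the array median on all 6 arrays, namely Fabp7, Tubb3, Stmn2, Elavl4, Sox2, Neurog1 and Olig2. The neuronal tubulin gene Tubb3 read 64.6 to 96.4 on the arrays of replicates 2 and 3 and 190 and 199 on those of replicate 1, with a log2 difference of -0.03 between genotypes. Sox1, Pax6, Nkx6-1 and Neurod1 lay below the array median on all 6 arrays, and the other 4 were above it on some. The part of neural cells in the Hes5 difference was not tested.

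**Figure D5:**
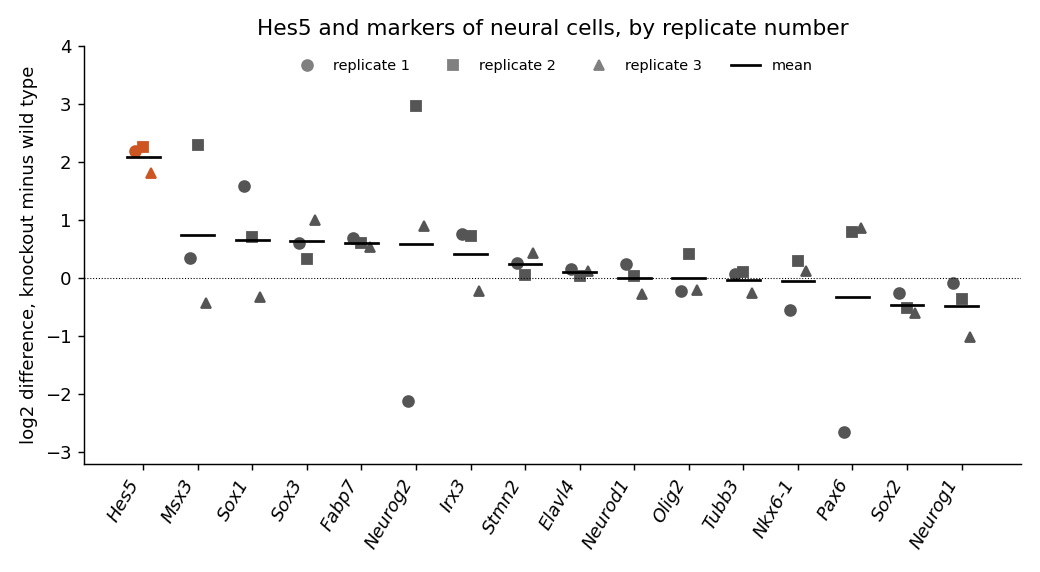
Log2 difference of knockout from wild type within each replicate number (symbols) and their mean (bars) for Hes5 (orange) and the 15 measured markers of neural cells (grey). Hes5 lies between 1.81 and 2.25, and the mean of the markers ranges from -0.49 for Neurog1 to 0.73 for Msx3.

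Vessel and muscle cells, in which Hey genes are expressed, gave no call either. Of 14 endothelial markers 7 differences were positive and 7 negative (median 0.0051), and their summed intensity was 164 to 216 in wild type and 146 to 215 in the knockout. Kdr, a receptor for vascular growth factor, differed by -0.26, Cldn5 by -0.31 and Tie1 by 0.25. Of 8 mural and smooth muscle markers 4 were positive (median -0.02), with sums of 16.7 to 31.5 and 17.7 to 30.5. The proteoglycan gene Cspg4 differed by 1.10 but was dim, at 0.995 ± 0.519 (SD, n = 3) over the wild-type arrays and 1.99 ± 0.378 (SD, n = 3) over the knockout arrays. Rgs5 differed by -0.29 and Des by -0.37. Of 8 heart muscle markers 3 were positive (median -0.06), with sums of 93.9 to 132 and 89.4 to 109. Nkx2-5 differed by -0.74, Myl2 by -0.50 and Nppa by -0.31, all lower in 3 of 3 pairs, though Myl2 by just -0.0095 in replicate 1. The differences of the 8 ran from -0.74 to 0.50.

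The genes that work with the repressors were examined next. Of 4 measured relatives outside the family, 3 had a positive difference and 1 a negative one (median 0.36), with 0 calls in either limma fit. Hes2 read 12.4 ± 2.25 (SD, n = 3) over the wild-type arrays and 9.46 ± 0.752 (SD, n = 3) over the knockout arrays. It was lower in 3 of 3 pairs (log2 difference -0.38), though by just -0.06 in replicate 1, whereas Bhlhe40 and Bhlhe41 differed by 0.51 each. Within replicates 1, 2 and 3 the difference was 0.95, 0.01 and 0.55 for Bhlhe40 and 1.12, 0.23 and 0.18 for Bhlhe41. Bhlhe40 was dim, above the array median on 4 of 6 arrays, and the groups of each of these genes overlapped. Of 9 measured co-repressor genes, 4 had a positive difference and 5 a negative one (median -0.03), with 0 calls. The Groucho genes Tle2, Tle5 and Tle3 differed by 0.95, -0.23 and -0.20. Tle2 was dim, at 0.304, 1.62 and 1.97 on the wild-type arrays and 1.15, 3.04 and 1.98 on the knockout arrays. Its groups overlapped, and within replicates 1, 2 and 3 it differed by 1.92, 0.91 and 0.0051. Tle5 and Tle3 read higher in replicate 1 by 3.82 and 3.67, so that their replicate gap, like that of Hes7, was larger than the difference between genotypes. Of 5 measured E proteins and Id inhibitors, which pair with bHLH factors, 2 were positive and 3 negative with 0 calls. Tcf3 differed by 0.34, Id1 by 0.11 and Tcf12 by -0.10.

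Genes that Hes factors are known to repress in other tissues gave 0 calls among 9 measured, where 5 differed upwards and 4 downwards (median 0.17). Gadd45g, a stress and growth arrest gene, read 36.8 ± 10.6 (SD, n = 3) over the wild-type arrays and 54.4 ± 9.92 (SD, n = 3) over the knockout arrays, higher in 3 of 3 pairs (log2 difference 0.59). The cell cycle inhibitor gene Cdkn1a differed by -0.85, with a high replicate 1 array in each genotype. Upstream, the 23 measured genes of Notch reception and transduction gave 0 calls, and 12 had a positive difference against 11 with a negative one (median 0.09). The protease gene Adam17 differed by 0.65, the receptor gene Notch4 by 0.51 and the ligand gene Jag1 by 0.36, each with overlapping groups.

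The 11 measured Notch targets outside the family, Nrarp among them, had a positive difference in 8 cases and a negative one in 3 (median 0.16). With the block 1 of the 11 passed, the replaced gene Nrarp. The blocked limma unadjusted p was under 0.05 for 4 genes higher in the knockout and for 1 lower, which is Nrarp. Over all probes these shares were 1.76% and 1.99%. Without the block 1 gene was higher and 1 lower at that level, against 0.345% and 0.312% of all probes. Dtx1, which encodes a Notch-binding ubiquitin ligase, differed by 1.33 but was dim, at 0.663 ± 0.424 (SD, n = 3) over the wild-type arrays and 1.48 ± 0.294 (SD, n = 3) over the knockout arrays. It was above the array median on 4 of 6 arrays, namely the knockout arrays and wild-type replicate 1. Its mean log2 value was -0.78 in wild type and 0.55 in the knockout, so its place among the brighter genes rests on the knockout values. Snai1, a repressor of epithelial genes, differed by 0.69 and was higher in 3 of 3 pairs. Efnb2, a ligand of Eph receptors, differed by -0.70 and was lower in 3 of 3 pairs. It too was dim, at 1.29 ± 0.422 (SD, n = 3) over the wild-type arrays and 0.798 ± 0.277 (SD, n = 3) over the knockout arrays. Efnb2 was above the array median on 3 of 6 arrays, namely wild-type replicates 1 and 3 and knockout replicate 1. Its mean log2 value was 0.32 in wild type and -0.38 in the knockout, so its place among the brighter genes rests on the wild-type values. Among the presomitic mesoderm markers, with 0 calls, 6 of them positive and 8 negative (median -0.05), Aldh1a2 differed by 1.23, Mesp2 by 0.56 and Fgf8 by -0.39.

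Genes with the most similar pattern over the 6 arrays were found by the root mean square distance of log2 values, each centred on its own mean, among 8649 other genes above the median level. The agouti gene lay nearest to Hes5 at 0.39, followed by the DNA repair gene Ercc5 at 0.45. Ercc5 read 0.930, 0.438 and 0.660 on the wild-type arrays and 1.66, 1.65 and 2.11 on the knockout arrays. Its wild-type values lay below the array medians, so its mean passed that level through the knockout arrays, and separate groups are built into a choice by likeness to Hes5. For Hes7 the nearest genes were Uhrf1 (0.31) and Trpc4ap (0.32). Uhrf1, which maintains DNA methylation, read 42.9, 1.55 and 1.89 on the wild-type arrays and 61.8, 1.47 and 1.82 on the knockout arrays, so that it shared the gap between replicate 1 and the rest. For Hes1 they were Arhgap39 (0.06) and Bbs7 (0.09), for Hey1 Stard4 and Slitrk5 (0.10 each), for Hey2 Phka2 and Csnk2a2 (0.05 each), and for Heyl Tmed11 (0.19) and Ighmbp2 (0.22). Within the family the closest pair was Hey1 and Hey2 at 0.16. Hey2 ranked 47 among the neighbours of Hey1, and Hey1 ranked 308 among those of Hey2. Hes5 and Hes7 were the farthest apart at 2.55. These distances hold over 6 arrays that share the gap of replicate 1, and flat genes lie near to one another.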

How the data were processed

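Digoxigenin-labelled cRNA made from total RNA was hybridised to single-colour Applied Biosystems arrays, per the labels. The labels describe a human array, although the RNA is from mouse and a mouse array's annotation was used. The deposited values are linear intensities, which the authors had scaled to array medians just under 1. How they were scaled, background corrected and flagged is not given in the sources used here, and background handling affects dim probes most. Of 33012 probes, 14411 had 1 gene in the annotation, 247 had several and 18354 were unnamed here.

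Intensities were taken to log2 with no offset or filter. All probes were fitted with limma 3.58.1 in R 4.3.3 (lmFit, then eBayes with a trend on intensity), and two-sided p-values were adjusted by Benjamini-Hochberg over all of them, with 0.05 as threshold. The fit had 4 residual degrees of freedom, or 2 with the replicate block, and was tested on simulated data. Blocked fits that leave out a replicate number have fewer still. Single values were tested with an exact permutation test. Tables and figures used Python 3.11.15 with pandas 2.3.3, scipy 1.17.1, numpy 2.4.6 and matplotlib 3.10.9. The replicate numbers were treated as pairs because deviations from the group means correlated within numbers 1, 2 and 3 (0.757, 0.442 and 0.374). Numbers 2 and 3 also correlated across (0.397 and 0.419), about as much as within. The pairing therefore rests on the split of replicate 1 from the others, and these values give no reason to pair within numbers 2 and 3. The labels tie no number to a litter or day.

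The members and gene lists were chosen with earlier results of these data known, so lists are described and not tested. Besides the members, the text names Nrarp, called genes of each list, up to 3 genes of each list with the largest difference above the median level, and the 2 genes nearest in pattern to each member. Msgn1, Dll1, Tbx6, Meox1, Dll3, Msx3 and the neural markers listed by level are named outside this rule. The alternatives were the block, the variance prior, array weights, quantile normalization, centring on the 75th percentile, log2(intensity + 1), a filter on dim probes, the choice of probe, replicates 2 and 3 alone and each array left out. The choice of probe could change nothing, since each member had 1 probe. Blocked fits without replicate 2 or 3, with 2 block levels and with quantile normalization were added after seeing the data.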

Additional observations from a re-analysis of the deposited data

How the results depend on the processing

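Over 20 alternatives the Hes5 log2 difference stayed between 1.93 and 2.22 and the Hey1 difference between 0.11 and 0.64, both positive throughout. In this balanced design the block, the variance prior and the filter cannot by themselves move the estimate, so those alternatives repeat it. The choice of probe repeats the whole fit, since each member had 1 probe. Without a replicate block Hes5 was not called in any of 13 alternatives (limma adjusted p from 0.0821, with array weights, to 1.00), and with one it was called in 6 of 7. These were the replicate block (2.09), replicates 2 and 3 alone (2.03), the block without replicate 2 of both groups (2.00) or without replicate 3 (2.22), the block of 2 levels (2.09) and the block with quantile normalization (2.09), with adjusted p from 0.0011 to 0.030. The seventh, without an intensity trend, gave 0.975. Those of the 6 that leave out a replicate number use part of the same arrays and lean more on the variance prior. They are no independent support. In the same 6 fits the count of members called was 1. Nrarp was called in these fits (-4.03, -3.80, -4.37, -3.91, -4.03 and -4.15) and with array weights (-4.10). The count of all probes called was 0 in the fit without a block, 1 with array weights, 7 in the blocked fit without replicate 3 of both groups and 2 in the other 5 blocked fits with calls. Hey2 and Heyl turned to -0.0010 and -0.083 in replicates 2 and 3 alone, and Hes1 and Hes7 to 0.065 and 0.25 in the blocked fit without replicate 3 of both groups, where the cause was not tested. With 1 array left out at a time, so that replicates are unbalanced, the values ran over -0.97 to 0.19 for Hes1, -1.94 to 1.57 for Hes7, -0.20 to 0.41 for Hey2 and -0.19 to 0.72 for Heyl, and 0 members and 0 probes were called. Hes1 turned positive without wild-type replicate 1 and without knockout replicates 2 or 3, as did Hes7, and Hey2 and Heyl turned negative without knockout replicate 1. The Hes5 difference exceeded that of each other member in all 8 alternatives of that comparison, with the smallest excess 0.62 (over Hes7, single arrays left out). The number of arrays and the lack of detection flags limit what can be said of Hes7 and Heyl.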
